A study of Nothobranchius furzeri with 12 samples.

Results

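The genes gch2 and xdh encode enzymes of pteridine metabolism, and their transcripts were followed in the tail fin of Nothobranchius furzeri, the turquoise killifish, a small African fish bred in laboratory strains. Both were taken by their row identifiers in the deposited expression table, where XM_015962928 is gch2 and XM_015957907 is xdh, and they are 2 of its 20788 transcript entries. RNA sequencing covered 12 libraries in 4 groups of 3 biological replicates. The red tail group came from fish of strain MZCS002 and was set against tail fins of MZCS002 females. The yellow tail group came from fish of strain GRZ-BELL and was set against tail fins of GRZ-BELL females. In the coloured fish the pigmented part of the fin was cut out, and in females the matching part. The labels give no age and no sex for the coloured fish, so colour and sex cannot be told apart, and between red and yellow tails colour and strain cannot be told apart either. A further number in the library descriptions differs with the strain, and its meaning is not given.

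Pteridines are ring compounds made from the nucleotide GTP. GTP cyclohydrolase, the product of gch2, takes the first step, and the product of pts takes the next. From there the pathway leads either to tetrahydrobiopterin, a cofactor of several hydroxylases, or to the yellow and red pteridine pigments that xanthophores, the yellow to red pigment cells of fish, hold in their pigment organelles beside carotenoids. Xanthine dehydrogenase, the product of xdh, oxidises both pteridines and the purines hypoxanthine and xanthine, and it is also used in many other cell types. In zebrafish, gch2 and xdh are both used as markers of developing xanthophores.

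Both genes were higher in coloured tails than in the female fins of the same strain, in both strains, but on very different scales. The mean level of gch2 was 247 times as high in red tails as in MZCS002 females and 34.0 times as high in yellow tails as in GRZ-BELL females, or 313 times without GRZ-BELL female 1, so the order of the strains in this ratio rests on that library. For xdh the ratios were 7.87 in red tails and 3.29 in yellow tails, and the difference of xdh in the yellow strain did not pass the test across all entries. The gch2 transcript made up between 0.257% and 0.724% of all reads of a red tail library and between 0.0303% and 0.229% of a yellow tail library.

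Values are the authors' normalized reads, that is, reads per transcript scaled by the size factor of each library, with no correction for transcript length, so levels are compared between samples and not between genes. The libraries held between 5495553 and 17053983 reads. The smallest was MZCS002 female 2, with a size factor of 0.318. Its correlation with the mean of the other libraries of its group was 0.928 over all 20788 entries, against 0.962 to 0.983 for the other 11 libraries. The fin ray gene and1, which encodes an actinodin of the fin fold fibres, and the keratin gene krt5 of the epidermis were detected in every library. In bulk tissue, fewer cells of a type and less RNA per cell cannot be told apart.

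gch2 had 42967, 88797 and 32889 normalized reads in red tails 1, 2 and 3, against 182, 97.4 and 388 in MZCS002 females 1, 2 and 3. Every red tail stood far above every MZCS002 female, and the groups did not overlap. The means were 54884 ± 29798 in red tails and 223 ± 149 in MZCS002 females (SD, n = 3 each). On the log2(value + 1) scale the difference was 8.03 ± 1.08 (SE), with a 95% interval of 5.70 to 10.36 and an adjusted p of 0.0012 (limma, fitted on all 12 libraries and Benjamini-Hochberg adjusted over 15170 tested entries).

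xdh had 926, 944 and 599 normalized reads in red tails, against 101, 28.3 and 185 in MZCS002 females. All red tails were again above all females, with red tail 3 the lowest of its group and MZCS002 female 2 the lowest of all 12 libraries. The means were 823 ± 194 in red tails and 105 ± 78.4 in MZCS002 females (SD, n = 3 each). The log2 difference was 3.30 ± 0.61, with an interval of 1.98 to 4.62 and a limma adjusted p of 0.011. Both genes were thus called higher in red tails, where 2.71% of all tested entries were called higher, and 12.7% of tested entries had red tails entirely above MZCS002 females. The call of xdh was lost without red tail 1 (log2 difference 3.2, adjusted p = 0.051) or red tail 2 (3.18, adjusted p = 0.062), and in a fit on these 6 libraries alone (3.30, adjusted p = 0.068).

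In the yellow strain gch2 had 7480, 26834 and 4351 normalized reads in yellow tails, against 1056, 30.8 and 51.6 in GRZ-BELL females. The groups did not overlap, but GRZ-BELL female 1 was 20.5 times as high as the next female. The means were 12889 ± 12178 in yellow tails and 379 ± 586 in GRZ-BELL females (SD, n = 3 each). The log2 difference was 6.30 ± 1.08, with an interval of 3.97 to 8.64 and a limma adjusted p of 0.0072. Without GRZ-BELL female 1 it was 7.87 with an adjusted p of 1.9e-04, and with edgeR it was 5.10 with an adjusted p of 0.060, which missed the threshold of 0.05.

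xdh had 184, 325 and 151 normalized reads in yellow tails, against 29.4, 109 and 61.8 in GRZ-BELL females. The lowest yellow tail was above the highest female, so these groups did not overlap either. The means were 220 ± 92.3 in yellow tails and 66.7 ± 40.1 in GRZ-BELL females (SD, n = 3 each). The log2 difference was 1.82 ± 0.61, with an interval of 0.49 to 3.14 and a limma adjusted p of 0.21, which did not pass. Of the genes gch2 and xdh, 1 was therefore called higher in yellow tails, against a background of 1.49% of tested entries, and 13.1% of tested entries had yellow tails entirely above GRZ-BELL females. Without MZCS002 female 2, a library of the other strain that enters through the shared spread, xdh passed with a difference of 1.82 and an adjusted p of 0.041.

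**Figure D1:**
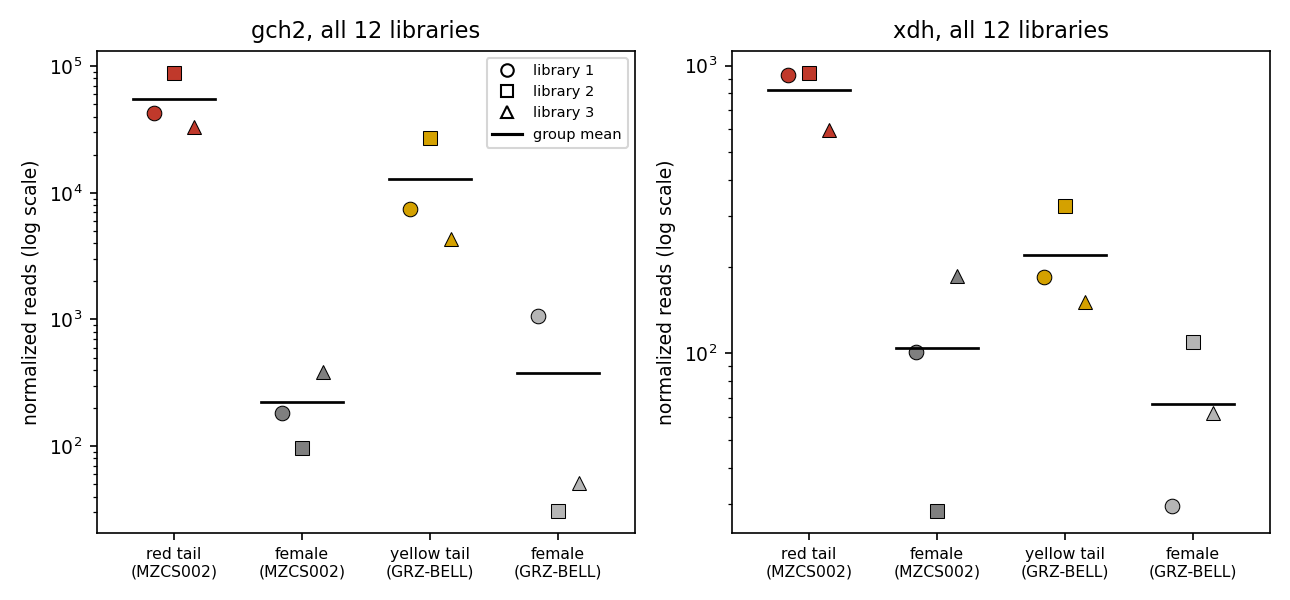
Normalized reads of gch2 and xdh in each of the 12 libraries on a log axis, with a symbol shape for each replicate number and a line for the group mean, in red tails, MZCS002 females, yellow tails and GRZ-BELL females. Red tails sit highest for both genes, at 32889 to 88797 for gch2 and 599 to 944 for xdh, and GRZ-BELL female 1 lies far above the other GRZ-BELL females for gch2 at 1056 but not for xdh at 29.4.

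Over both strains together, gch2 was higher in coloured tails by 7.17 ± 0.76 on the log2 scale (interval 5.52 to 8.82, limma adjusted p = 8.8e-05), in 6 of 6 coloured tails relative to every female of the same strain. xdh was higher by 2.56 ± 0.43 (interval 1.62 to 3.49, limma adjusted p = 0.0044), likewise in 6 of 6. Both were called in this contrast, in which 2.72% of tested entries were called higher. An exact permutation test, two-sided and with labels exchanged within each strain, gave p = 0.005 for each gene, which is the smallest value its 400 arrangements allow, and 0.0125 after adjustment over the 5 measures tested this way. This p follows from the separation in 6 of 6 coloured tails and adds nothing to it. Any entry so separated in both strains would reach it, and the share of such entries was not counted. Within 1 strain, 3 libraries against 3 cannot give an exact p below 0.1.

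Whether the difference between coloured tail and female varied with the strain was tested as an interaction, MZCS002 minus GRZ-BELL, which did not pass for either gene. For gch2 the interaction was 1.73 ± 1.52 (interval -1.57 to 5.02, limma adjusted p = 0.63), and for xdh it was 1.48 ± 0.86 (interval -0.39 to 3.35, limma adjusted p = 0.45). By limma 0 of these 2 genes were called, none had an unadjusted p under 0.05, and edgeR and DESeq2 called 0 as well, against 0.178% of tested entries called by limma in either direction. Without GRZ-BELL female 1 the interaction of gch2 was 0.16 (adjusted p = 0.96). The intervals are wide and include both no difference and a difference of several log2 units.

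Red tails were above yellow tails for both genes in every library. For gch2 the lowest red tail had 32889 and the highest yellow tail 26834 normalized reads, and for xdh these were 599 and 325. The mean of gch2 was 4.26 times as high in red as in yellow tails, and that of xdh 3.74 times as high. The log2 differences were 2.39 ± 1.08 for gch2 (interval 0.06 to 4.72, limma adjusted p = 0.19) and 1.95 ± 0.61 for xdh (interval 0.63 to 3.27, limma adjusted p = 0.071). Neither passed: limma called 0 of the 2, both had an unadjusted p under 0.05, edgeR called 0 and DESeq2 called 1, namely xdh with a difference of 1.90 and an adjusted p of 0.0083. The share of all tested entries with an unadjusted p under 0.05 was not counted, so that count of 2 has no background. DESeq2 called 2350 of the 15170 tested entries here, in either direction. Red tails lay entirely above yellow tails for 16.9% of tested entries, and 3.85% were called higher. In a fit on the red and yellow tails alone both passed, gch2 with an adjusted p of 0.041 and xdh with 0.0062, and xdh also passed without MZCS002 female 2 (1.95, adjusted p = 0.012) or MZCS002 female 3 (1.95, adjusted p = 0.043). The alternative settings with all libraries kept, that fit among them, each called between 835 and 2350 entries here, in either direction.

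The female fins of the strains overlapped for both genes. The log2 difference of MZCS002 females against GRZ-BELL females was 0.66 for gch2 (interval -1.67 to 3.00, limma adjusted p = 0.79) and 0.47 for xdh (interval -0.86 to 1.79, limma adjusted p = 0.74). By limma 0 of the 2 were called, none had an unadjusted p under 0.05, and edgeR and DESeq2 called 0, against 1.74% of tested entries called by limma in either direction. The sign of the gch2 value differed between settings, since it was -0.73 with edgeR and -0.76 with DESeq2. The mean of normalized reads was lower in MZCS002 than in GRZ-BELL females (223 against 379, with GRZ-BELL female 1 at 1056). The mean of log2 values, which limma compares, was higher (7.58 against 6.92). In order of the mean of log2 values, gch2 ran from red tails through yellow tails and MZCS002 females to GRZ-BELL females, and xdh had the same order. In that order the neighbouring female groups did not differ beyond their spread, and yellow tails overlapped neither red tails nor MZCS002 females for gch2, while for xdh yellow tails at 151 to 325 overlapped MZCS002 females at 28.3 to 185.

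The libraries within a group varied more for gch2 than for xdh in coloured tails. The highest red tail had 2.70 times the gch2 level of the lowest and 1.58 times for xdh, and among yellow tails these ratios were 6.17 and 2.15. Among MZCS002 females they were 3.98 for gch2 and 6.54 for xdh, and among GRZ-BELL females 34.3 and 3.72. Counting error was small for gch2 in coloured tails, where each library held at least 3166 reads of it. It was largest for xdh in MZCS002 female 2, with 9 reads and an exact Poisson 95% interval of 12.9 to 53.7 normalized reads, which covers counting error only.

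The libraries high in gch2 were also high in xdh in 3 of 4 groups: from high to low, replicates 2, 1 and 3 in both coloured groups and replicates 3, 1 and 2 in MZCS002 females. In GRZ-BELL females the order was reversed. There gch2 was highest in female 1 at 1056, and xdh was lowest in female 1 at 29.4, against 109 and 61.8 in females 2 and 3. Over all 12 libraries the log2 values of gch2 and xdh had a Pearson r of 0.81 and a Spearman rho of 0.83, which describes libraries that share group, strain and fin region. After the group means were subtracted Pearson's r was -0.02, and without GRZ-BELL female 1 it was 0.73 over 11 libraries.

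GRZ-BELL female 1 did not stand apart in the same way for the other genes of pteridine metabolism. It held 899 reads of gch2, with an exact Poisson 95% interval of 988 to 1127 normalized reads, against 37 and 66 reads in females 2 and 3, with intervals of 21.7 to 42.5 and 39.9 to 65.6. Its level of pts was 317 normalized reads, against 254 to 298 in females 2 and 3, and its level of aox6, an aldehyde oxidase gene related in sequence to xdh, was 23.5, against 18.0 to 35.8. The xanthophore receptor gene csf1ra was at 241 there, against 260 to 413 in females 2 and 3. Some other genes were higher in that library, among them the lipid droplet gene plin6 at 85.7 against 8.33 to 35.2, and agmo at 509 against 311 to 346. Several pigment cell markers were also higher there, among them apoda.1 at 29.4 against 0.833 to 6.25, fhl2a at 14.1 against 0.782 to 0.833, pax3a at 7.05 against 0 to 0.782 and tyr at 63.4 against 20.0 to 46.1. In that library apoda.1 and pax3a rest on 25 and 6 reads. Other pigment cell markers were lower there, among them tyrp1b at 75.2 against 130 to 164, pmela at 402 against 559 to 686 and mitfa at 21.1 against 25.8 to 45.8. The xanthophore marker pax7a, at 92.8, lay between females 2 and 3, at 89.1 to 106. These comparisons were chosen after the values were seen, and their part in the gch2 level was not tested.

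The ratio of gch2 to xdh changed between females and coloured tails. As log2 of the ratio it was 5.54, 6.55 and 5.78 in red tails, against 0.85, 1.75 and 1.07 in MZCS002 females. It was 5.34, 6.36 and 4.84 in yellow tails, against 5.12, -1.79 and -0.25 in GRZ-BELL females. Red and yellow tails overlapped, and GRZ-BELL female 1 was the only female within the range of the coloured tails. Coloured tails were higher by 4.73 in MZCS002 and 4.49 in GRZ-BELL, a mean of 4.61 (exact permutation test within strains, two-sided, p = 0.01, adjusted over 5 measures 0.0167). Between red and yellow tails the mean ratios were 5.96 ± 0.53 and 5.51 ± 0.78 (SD, n = 3 each), a difference of 0.44 with an exact two-sided p of 0.4.

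Both genes were also read relative to csf1ra, which encodes a receptor needed by xanthophores in zebrafish and also present on macrophages. csf1ra averaged 2845 ± 424 normalized reads in red tails and 262 ± 122 in MZCS002 females, and 2607 ± 793 in yellow tails and 305 ± 94.6 in GRZ-BELL females (SD, n = 3 each). Red and yellow tails were alike in mean for csf1ra, with a log2 difference of 0.16 (interval -0.57 to 0.89, limma adjusted p = 0.81). Relative to csf1ra, gch2 was higher in coloured tails by 3.86 on the log2 scale (exact two-sided p = 0.015, adjusted 0.0188). For xdh the value was -0.75 (exact two-sided p = 0.09, adjusted 0.09), and without MZCS002 female 2 it was -1.04 with p = 0.005.

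Between the colours, xdh relative to csf1ra was -1.79, -1.65 and -1.99 in red tails, against -3.33, -3.40 and -4.06 in yellow tails. The colours did not overlap, with red tails higher by 1.79 on the log2 scale, and the exact two-sided p of 0.1 is the smallest that 3 against 3 allows. gch2 relative to csf1ra was 3.75, 4.90 and 3.79 in red tails, against 2.01, 2.97 and 0.78 in yellow tails, again apart, by 2.23 and with the same smallest p of 0.1. In yellow tails gch2 relative to csf1ra still overlapped GRZ-BELL females through female 1, at 2.13. For xdh, yellow tails were below all GRZ-BELL females in this ratio, at -2.99, -1.91 and -2.05 in those females, while red tails overlapped MZCS002 females.

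**Figure D2:**
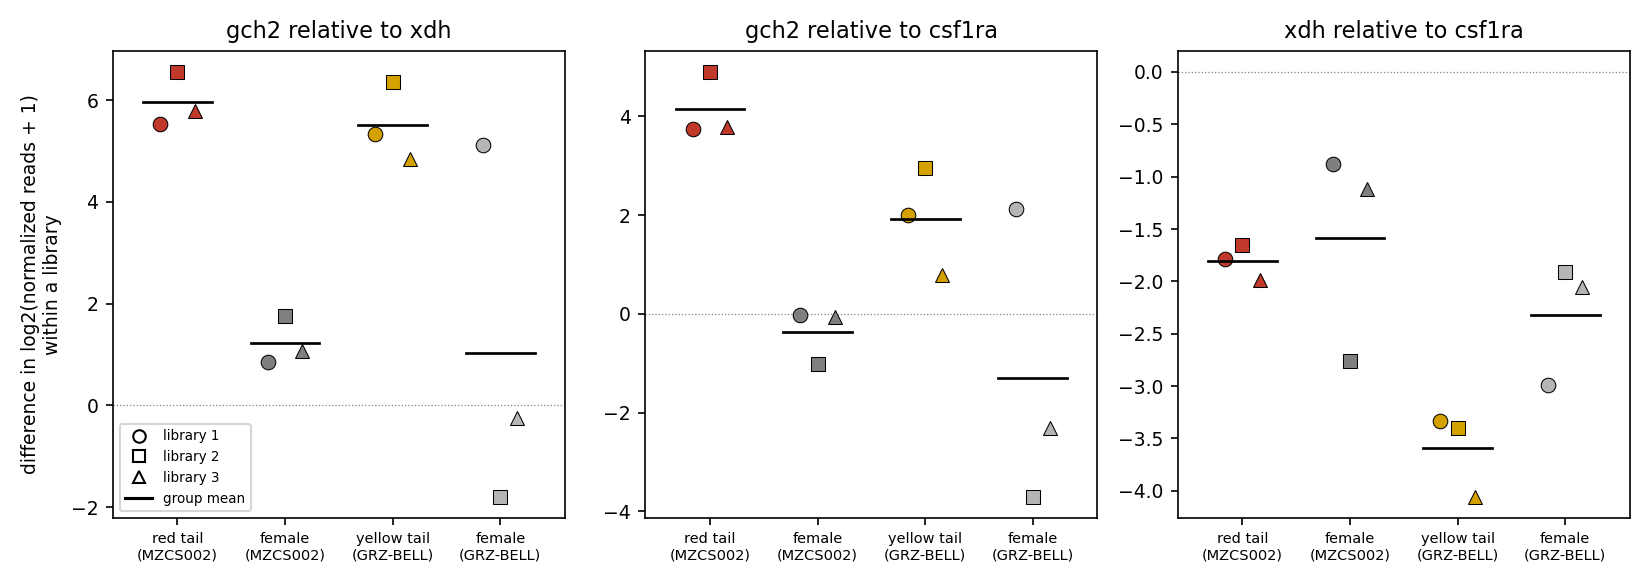
Log2 ratios of gch2 to xdh, gch2 to csf1ra and xdh to csf1ra in each library, in red tails, MZCS002 females, yellow tails and GRZ-BELL females, computed as differences of log2(normalized reads + 1), with a symbol for each library and lines for group means. The ratio of gch2 to xdh is alike in both colours, with means of 5.96 in red and 5.51 in yellow tails, and xdh to csf1ra separates red tails at -1.99 to -1.65 from yellow tails at -4.06 to -3.33.

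Other genes of the pathway did not follow the same pattern across colours. Listed genes were found by symbol, which 10617 of the 20788 entries carried, so a gene whose entry lacks one is not counted as measured. Of 20 listed genes of pteridine synthesis and conversion 9 were measured in this sense and all were tested. Besides gch2 and xdh these were gch1, the other GTP cyclohydrolase gene, its feedback regulator gene gchfr, pts, the sepiapterin reductase gene spra, the dihydropteridine reductase gene qdpra, aox6, and mycbp2, a ubiquitin ligase gene whose loss alters xanthophore pigment in zebrafish. Among the 7 without gch2 and xdh, limma called 0 in red tails against MZCS002 females, although 2 had an unadjusted p under 0.05. There edgeR called 0 and DESeq2 called 2, beside 696 and 1757 of the 15170 tested entries. In yellow tails against GRZ-BELL females limma called 2 of the 7 higher, beside 1.49% of all tested entries. It called 2 lower in red than in yellow tails, where 3.58% of tested entries were called lower. The median log2 difference of these 7 was -0.06 in red tails and -0.11 in yellow tails against their females, beside 0.01 and -0.02 over all tested entries.

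The 2 that were called were pts and aox6. Over both strains together limma also called both higher in coloured tails against females, beside 2.72% of all tested entries. The log2 differences there were 1.97 ± 0.20 for pts (limma adjusted p = 6.0e-05) and 3.40 ± 0.39 for aox6 (limma adjusted p = 1.6e-04). pts had 705.1, 1262 and 866 normalized reads in red tails, against 487, 497 and 352 in MZCS002 females. It had 1554, 2234 and 2845 in yellow tails, against 317, 298 and 254 in GRZ-BELL females. Coloured tails were above the females in both strains, and yellow tails were also above all red tails. The log2 difference was 2.89 ± 0.28 in yellow tails (limma adjusted p = 1.2e-04) and 1.06 ± 0.28 in red tails (adjusted p = 0.055), and red against yellow tails gave -1.23 ± 0.28 (adjusted p = 0.022). Leaving out red tail 1, red tail 3, yellow tail 2 or yellow tail 3 ended this last call, with adjusted p up to 0.097.

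aox6 had 80.9, 103 and 80.7 normalized reads in red tails, against 17.1, 12.6 and 40.1 in MZCS002 females. It had 606, 1681 and 339 in yellow tails, against 23.5, 35.8 and 18.0 in GRZ-BELL females. The coloured groups were apart from their females and from each other, with yellow tails highest. The log2 difference was 4.77 ± 0.55 in yellow tails (limma adjusted p = 3.8e-04), 2.04 ± 0.55 in red tails (adjusted p = 0.055) and -2.99 ± 0.55 between red and yellow tails (adjusted p = 0.0074). gch2 and xdh were thus higher in red than in yellow tails in every library, and pts and aox6 lower in every library. Red tails lay entirely above yellow tails for 16.9% of tested entries, and the share entirely below was not counted. The interaction, MZCS002 minus GRZ-BELL, was -1.83 ± 0.40 for pts (limma adjusted p = 0.10) and -2.73 ± 0.77 for aox6 (limma adjusted p = 0.16), so neither passed. DESeq2 called both there (adjusted p = 0.0034 and 0.0056), beside 625 of the 15170 tested entries, and edgeR called 0 of the 7. Relative to aox6, xdh averaged 3.19 ± 0.31 log2 units in red tails and -1.75 ± 0.60 in yellow tails, and gch2 averaged 9.14 ± 0.55 in red tails and 3.76 ± 0.20 in yellow tails (SD, n = 3 each). These ratios were chosen after the values were seen.

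The remaining 5 genes did not pass the threshold in any of the 6 contrasts. For coloured tails against females over both strains the log2 difference was -0.09 for gch1, -0.56 for gchfr, 0.01 for spra, -0.15 for qdpra and -0.32 for mycbp2, and limma called 0 of these 5. Of them gchfr alone had an unadjusted p under 0.05 there, and edgeR and DESeq2 called 0. gch1 averaged 142 ± 82.8 normalized reads in red tails and 144 ± 69.5 in MZCS002 females, and 161 ± 50.7 in yellow tails and 180 ± 79.6 in GRZ-BELL females (SD, n = 3 each). The large difference of gch2 therefore had no counterpart in gch1, whose 4 groups all overlapped.

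**Figure D3:**
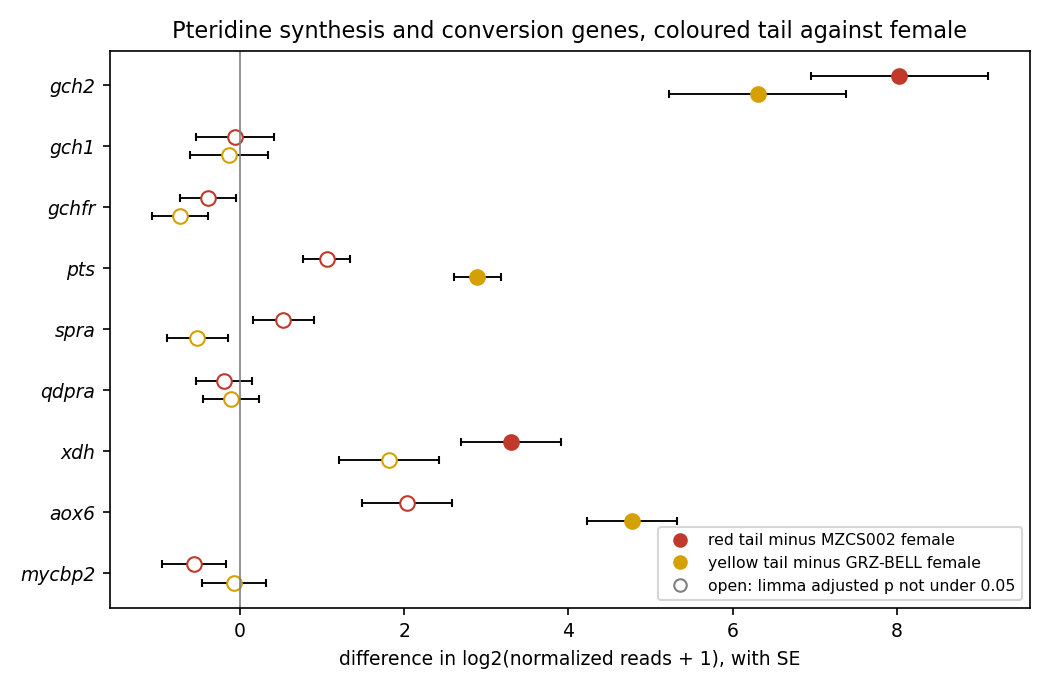
Differences, with SE bars, of log2(normalized reads + 1) for the 9 measured genes of pteridine synthesis and conversion, red tails minus MZCS002 females in red and yellow tails minus GRZ-BELL females in yellow, with filled symbols for a limma adjusted p under 0.05. The red symbol lies to the right of the yellow one for gch2 (8.03 and 6.30) and xdh (3.30 and 1.82), and to the left for pts (1.06 and 2.89) and aox6 (2.04 and 4.77), while gch1 lies near 0 in both. By limma 0 of these 9 genes passed the test of the difference between the strains.

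Genes on either side of these enzymes were read from lists of the pathway. agmo, an alkylglycerol monooxygenase gene whose enzyme uses tetrahydrobiopterin, was 1 of 2 tested among 5 measured users of that cofactor. It had 18190, 21737 and 11860 normalized reads in red tails, against 339, 59.7 and 369 in MZCS002 females. It had 1569, 3270 and 1091 in yellow tails, against 509, 311 and 346 in GRZ-BELL females. The order of groups was that of gch2 in coloured tails, and every coloured tail was above the females of its strain. The log2 difference was 6.41 ± 0.60 in red tails (limma adjusted p = 8.1e-05), 2.22 ± 0.60 in yellow tails (adjusted p = 0.10) and 3.24 ± 0.60 for red against yellow tails (adjusted p = 0.0080). Of all tested entries 2.71% were called higher in red tails and 3.85% in red against yellow tails. The other tested gene, th2, averaged 37.7 in red tails and 46.9 in MZCS002 females. Its means were 38.4 in yellow tails and 49.2 in GRZ-BELL females, and limma called th2 in none of the 6 contrasts.

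**Figure D4:**
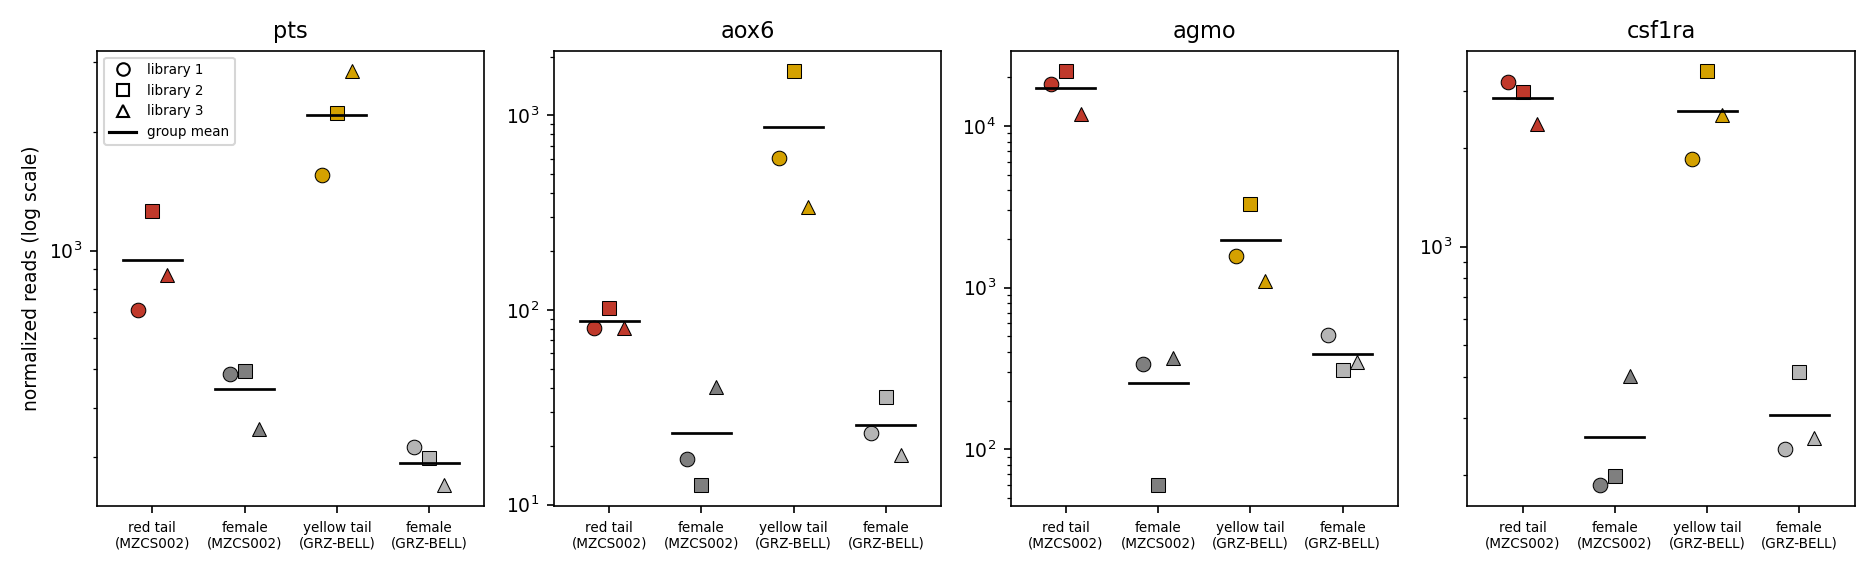
Normalized reads of pts, aox6, agmo and csf1ra in each library on log axes, in red tails, MZCS002 females, yellow tails and GRZ-BELL females, with a line for the group mean. pts and aox6 are highest in yellow tails, at 1554 to 2845 and 339 to 1681, agmo is highest in red tails at 11860 to 21737, and csf1ra overlaps between the colours.

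Purine synthesis supplies the GTP on which the gch2 enzyme acts. The list read here covers purine synthesis and salvage more widely, and its members adss2, adssl and aprt lead to AMP and not to GTP. Of its 14 tested genes, limma called 2 higher in red tails, beside 2.71% of all tested entries. These were atic by 1.38 ± 0.28 (adjusted p = 0.017) and aprt by 1.58 ± 0.39 (adjusted p = 0.041). In a fit on these 6 libraries alone limma called 0 of the 14, with adjusted p of 0.11 for atic and 0.19 for aprt. For atic the call ended without red tail 2 (1.25, adjusted p = 0.098) or MZCS002 female 3 (1.23, adjusted p = 0.057), and that of aprt without any 1 of 10 libraries, with adjusted p up to 0.18. In yellow tails limma called 0 of the 14, 4 had an unadjusted p under 0.05, edgeR called 0 and DESeq2 called 1. The median log2 difference of the 14 was 0.81 in red tails and 0.42 in yellow tails. Between the colours adssl, an adenylosuccinate synthase gene, was higher in red tails by 1.90 ± 0.31 (adjusted p = 0.0036). It was 1 of 14 called higher, beside 3.85% of all tested entries. For adssl the females stood apart in the same direction, at 838 to 1575 normalized reads in MZCS002 and 470 to 714 in GRZ-BELL. Yellow tails averaged 570 and GRZ-BELL females 569. By limma 0 of the 14 were called between the females. The xdh enzyme also acts on purines, and of the 10 other tested genes of purine breakdown 4 were called higher in red and 4 in yellow tails, beside 2.71% and 1.49% of all tested entries. These were pnp4a and pnp5a, purine nucleoside phosphorylase genes, uraha, a gene of urate breakdown, and ada2b, an adenosine deaminase gene, and the differences were 5.76, 6.04, 6.08 and 3.06 in red tails and 6.40, 4.15, 3.07 and 4.18 in yellow tails. For uraha the means were 825 in red tails (259, 2070 and 146) and 786 in yellow tails, against 5.41 in MZCS002 and 90.2 in GRZ-BELL females. Between the females limma called 1 of the 10, uraha, lower in MZCS002, beside 1.74% of tested entries in either direction, a call lost in 4 settings. The yellow call of uraha was lost with edgeR (3.14, adjusted p = 0.055), with equal totals (3.00, adjusted p = 0.064), with no filter (0.054), with a mean of at least 50 (0.055) and without any 1 of 9 libraries, with adjusted p up to 0.20. These 9 were the 6 libraries of that comparison, red tail 1 and MZCS002 females 1 and 3. The median of the 10 was 1.64 in red tails and 2.13 in yellow tails, and pnp4a is also an iridophore marker. The 10 include adka, an adenosine kinase gene whose product leads to AMP and not to purine breakdown, and which was not called in either coloured tail. Xanthine dehydrogenase needs the molybdenum cofactor, and of 4 tested genes for making or using that cofactor limma called 0 in each of the 6 contrasts, with at most 2 at an unadjusted p under 0.05, 0 called by edgeR and at most 1 by DESeq2.

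Markers of pigment cells moved with gch2 and xdh. Leaving out gch2 and xdh, 6 xanthophore markers were tested, and 5 were called higher in red tails and 5 in yellow tails, beside 2.71% and 1.49% of all tested entries, with median log2 differences of 2.95 and 3.16. The 7 measured ones summed to 5280 to 6295 normalized reads in red tails, against 519 to 1063 in MZCS002 females, and to 3842 to 7093 in yellow tails, against 552 to 685 in GRZ-BELL females. The xanthophore sums of red and yellow tails therefore overlapped while gch2 and xdh did not. csf1ra was the largest member of these sums, with means of 2845 in red and 2607 in yellow tails. Single members differed between red and yellow tails in both directions. pax3a (890 to 1028 against 0 to 2.75) and plin6 (942 to 1095 against 356 to 751) were higher in red tails. pax7a was lower there (493 to 585 against 676 to 1512), and the remaining members overlapped. tfec was counted in both this list and the iridophore list. The 8 melanophore markers summed to 6315 to 11526 in red tails, against 1037 to 1900 in MZCS002 females, and to 7480 to 11869 in yellow tails, against 1121 to 1535 in GRZ-BELL females, with 5 of 8 called higher in each. The 7 iridophore markers summed to 3771 to 6518 in red tails, against 99.9 to 245 in MZCS002 females, and to 10959 to 21157 in yellow tails, against 111 to 169 in GRZ-BELL females, with 5 called higher in red tails, and 6 called higher and 1 lower in yellow tails, where 0.349% of tested entries were called lower. No marker of these lists was at 0 in any whole group of libraries, and the part of pigment cell content in the gch2 and xdh differences was not tested.

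Of 9 leukocyte, 4 epidermis and 5 vessel markers, limma called 0 in either coloured tail against its females. At an unadjusted p under 0.05 there were 1, 0 and 1 in red tails and 0, 0 and 2 in yellow tails, edgeR called 0 in each, and DESeq2 called 1 leukocyte marker in red tails and 1 vessel marker in yellow tails. The leukocyte sums were 17321 to 33655 in red tails, against 14662 to 29244 in MZCS002 females, and 11028 to 18645 in yellow tails, against 11913 to 33382 in GRZ-BELL females. Of 5 red blood cell markers 2 were called higher in yellow tails, beside 1.49% of all tested entries. Their sums were 1286 to 1910 in yellow tails, against 325 to 708.2 in GRZ-BELL females. Against yellow tails, red tails had lower sums of these markers, at 601 to 829, and a median log2 difference of -2.64. Of the 5, limma called 2 lower, beside 3.58% of all tested entries. There edgeR and DESeq2 each called 4, beside 1194 and 2350 of the 15170 tested entries in either direction. In red tails the fin ray genes and1 and and2 were called higher, 2 of 9 tested fin ray bone and fibroblast markers, beside 2.71% of all tested entries. These calls were each lost without red tail 1, 2 or 3 or MZCS002 female 3. Over all settings, those with 1 library left out included, the call was lost in 14 for and1 and in 9 for and2. Of the 9 markers edgeR called 1, beside 696 of the 15170 tested entries, and a fit on red tails and MZCS002 females alone called 0. The nerve marker elavl4 differed by -1.99 in red tails against MZCS002 females (limma adjusted p = 0.037) and the muscle marker ckmb differed by -2.96 (limma adjusted p = 0.027), where 1.82% of tested entries were called lower. With 1 library left out, adjusted p reached 0.13 for elavl4, whose call was lost without any 1 of 7 libraries, and 0.098 for ckmb, lost without red tail 1 or 3 or MZCS002 female 3. The 4 muscle markers summed to 9.05 to 20.9 in red tails, against 31.4 to 347 in MZCS002 females, with a median log2 difference of -2.93, and edgeR and DESeq2 each called 3 of the 4. The part of these lists in the gch2 and xdh differences was not tested.

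Likeness was read as Pearson's r of log2 values. Only tested entries with a gene symbol were listed, over the 12 libraries and also after subtracting group means. Among these, the genes most like gch2 over the 12 libraries were tmem130 (r = 0.97), tyr, rab38b, plin6, hsd3b1, zdhhc2, zgc:77375 and mlana (r = 0.94). Of these, tyr encodes tyrosinase, the key enzyme of melanin synthesis, and mlana a melanosome protein. The genes most like xdh were prkar1b (r = 0.96), cdh6, gpsm1b, dnajb14, c16h10orf90, mitfa, slc38a3b and tmem182a (r = 0.94), of which mitfa encodes a transcription factor of pigment cells. These lists of named genes shared no gene. With entries without a symbol included, xdh ranked 206th of 15169 entries by likeness to gch2, and gch2 ranked 253rd by likeness to xdh. After the group means were subtracted, lsg1 (r = 0.97), rab38b, hsd3b1 and fhl2a (r = 0.87) were most like gch2, and zbtb2b, atf6, tm9sf1 and fzd1 (each r = 0.97) most like xdh. Among GRZ-BELL females those most like gch2 were all highest in female 1, as gch2 was, with hsd3b1 at 90.4 against 14.9 to 25.8. Among MZCS002 females those most like xdh were all lowest in female 2, as xdh was, with atf6 at 286 against 447 to 627. How far these r values rest on single libraries was not tested. All these values describe libraries that fall into groups and strains and that differ in depth.

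**Figure D5:**
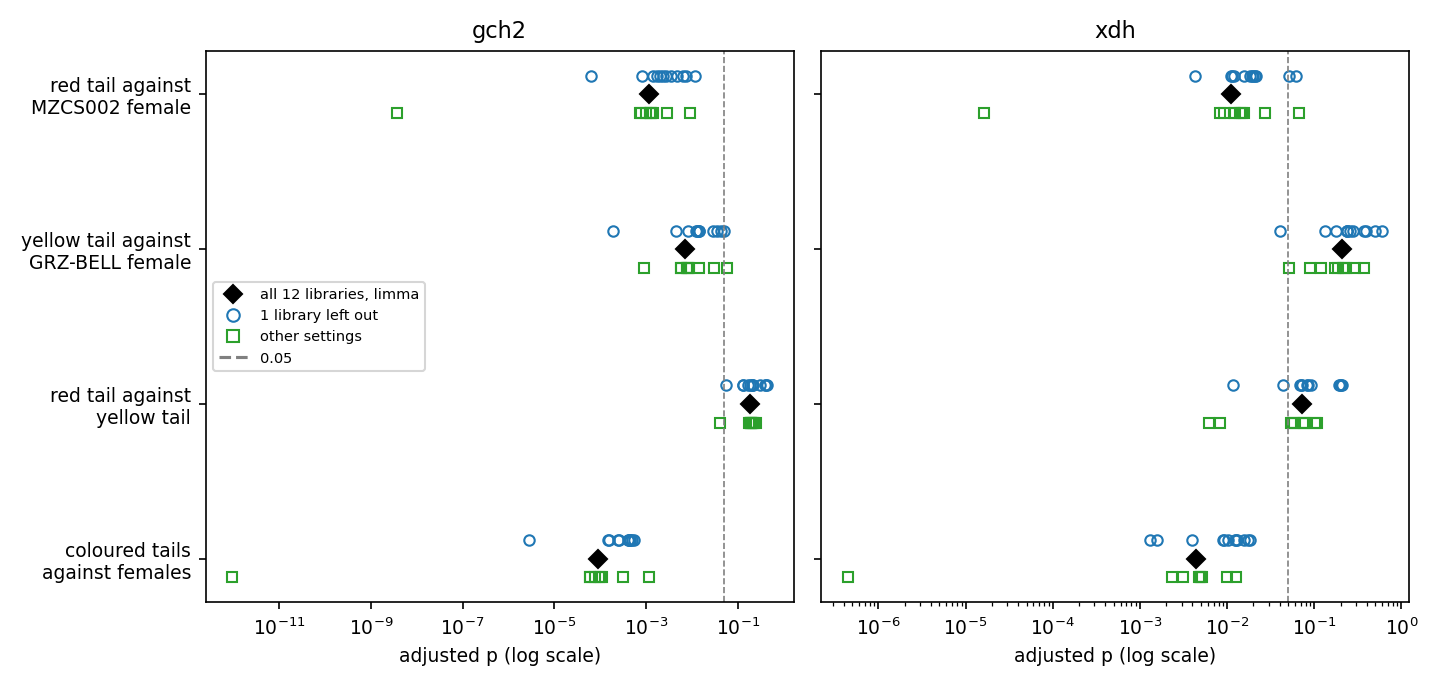
Adjusted p values of gch2 and xdh on a log axis for 4 contrasts, with a diamond for limma on all 12 libraries, circles with 1 library left out, squares for other settings and a dashed line at 0.05. gch2 in coloured tails against females stays left of the line throughout, while xdh in red tails against MZCS002 females crosses it in some settings, with a highest value of 0.068.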

How the data were processed

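RNA of 12 tail fin libraries was sequenced, and 1 table was used. Its values were deposited by the authors as normalized counts, a signal scaled by a size factor per library. The submitters' processing notes name Trimmomatic, STAR, featureCounts and DESeq2, with versions, roles and genome build not given in the sources used here. Dividing each deposited column by its smallest value above 0 gave whole reads for every value within a tolerance of 0.01, which also gives the depth of 5495553 to 17053983 reads. The same division was used for yellow tail 1, where the value of 1 read is so close to 1 that an automatic check of this step did not accept it. Recovered reads enter only the depths, counting intervals and the edgeR and DESeq2 alternatives, of which edgeR called 696 entries in red tails, 300 in yellow tails and 1194 in red against yellow tails. Transcript identifiers were matched to a RefSeq gene table (14145 entries, 10617 with a symbol), used for names and for finding the genes of the lists. In every list a measured gene is one found by its symbol, and listed genes not found may be among the entries without a symbol.

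Entries whose mean over libraries reached 10 (15170) were fitted with limma 3.58.1 under R 4.3.3, on log2(value + 1), with an intensity trend and group as the only term. The plan named limma for scaled values and edgeR only for deposited whole counts, and the deposited values are scaled. P-values were Benjamini-Hochberg adjusted over all tested entries at 0.05, and fold changes on this scale understate changes of low genes. Counts of genes with an unadjusted p under 0.05 are given without the share over all tested entries, which was not counted. Exact permutation tests covered single values. The limma, edgeR and DESeq2 fits, but not the exact tests, were tried on simulated data with 200 changed entries. Those data had 1 spread for all entries, narrower than that of gch2 within groups (SD of 54.3% to 154% of the mean). The trial therefore does not show how the fits perform for gch2. Alternatives were pseudocounts of 0.5 and 5, no filter, a mean of at least 50, equal totals, quantile normalization, edgeR 4.0.16, DESeq2 1.42.0, only the groups compared, a replicate block, and leaving out each library.

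Genes were named by rule: every measured pathway gene and up to 6 called members of each other list. Added were the 8 entries with a symbol most like gch2 and most like xdh over libraries, and the 4 most like each within groups. The members and lists were chosen with earlier results of these data known. The labels call the replicates biological, and p-values measure the spread between these samples.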

Additional observations from a re-analysis of the deposited data

Results flagged for a closer look

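A xanthophore marker read beside gch2 and xdh differed between the strains by the test of that difference itself. The gene pax3a, which encodes a transcription factor of pigment cell precursors, had 1028, 956 and 890 normalized reads in red tails, against 0, 0 and 0.680 in MZCS002 females. It had 0, 0 and 2.75 in yellow tails, against 7.05, 0 and 0.782 in GRZ-BELL females. The fitted interaction was 10.30 ± 1.14 on the log2(value + 1) scale (limma adjusted p = 0.0048). Its size depends on the pseudocount and the tool, since 3 of the 4 groups held 1, 2 and 7 reads in all: it was 7.81 with a pseudocount of 5 and 12.75 with DESeq2. The adjusted p reached 0.047 with a mean of at least 50, and 0.036 with 1 library left out. Neither gch2, at 1.73, nor xdh, at 1.48, passed the same test.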

How the results depend on the processing

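Of 340 recomputed values for gch2, xdh and their ratios, 324 kept their direction and their side of the threshold, 4 became weaker, 7 passed the threshold newly and 5 changed sign. The calls of gch2 in red tails and in coloured tails of both strains together, and of xdh in coloured tails of both strains together, held in every setting run. With edgeR the gch2 difference of yellow tails against GRZ-BELL females was 5.10 and missed the threshold. With only the groups compared, gch2 in red against yellow tails was 2.39 and passed, xdh in red tails against MZCS002 females was 3.30 and did not pass, and xdh in red against yellow tails was 1.95 and passed, as it did with DESeq2 at 1.90. For MZCS002 against GRZ-BELL females gch2 was -0.73 with edgeR and -0.76 with DESeq2. The cause of these changes was not tested.

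With 1 library left out, the ranges were 7.55 to 8.54 for gch2 and 2.55 to 3.89 for xdh in red tails, 5.34 to 7.87 and 1.33 to 2.26 in yellow tails, 1.82 to 3.13 and 1.72 to 2.27 in red against yellow tails, 0.16 to 2.69 and 0.74 to 2.07 for the interaction, -0.30 to 2.23 and -0.12 to 1.21 in MZCS002 against GRZ-BELL females, and -1.04 to -0.57 for xdh relative to csf1ra in coloured tails against females. The gch1 difference of coloured tails against females, -0.093 with all libraries, ranged there from -0.31 to 0.088, and that of spra, 0.0054, ranged from -0.19 to 0.16 and was -0.094 with quantile normalization and -0.011 with edgeR and with DESeq2. The r of gch2 and xdh after subtracting group means was 0.10 with equal totals, and -0.31 to 0.73 with 1 library left out.

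The count of called entries moved by more than 1.5 times in each contrast. It was 687 in red tails (112 with only the groups compared, 1757 with DESeq2, 171 without red tail 2 and 1166 without MZCS002 female 2) and 279 in yellow tails (483 higher and 228 lower with DESeq2, 152 without yellow tail 2, 532 without MZCS002 female 2). It was 1127 in red against yellow tails (2350 with DESeq2, 342 without yellow tail 1, 2616 without MZCS002 female 2), 264 between females (74 with only the groups compared, 808 with DESeq2, 111 without GRZ-BELL female 1), 27 for the interaction (13 with a mean of at least 50, 625 with DESeq2, 7 to 134 with 1 library left out) and 584 in coloured tails (1478 with DESeq2, 304 without red tail 2, 1304 without MZCS002 female 2).

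Replicate numbers are shared between groups, and the labels do not say whether they pair the samples. Of 18 pairs of same-numbered libraries 3 had deviations correlated above 0.1 (range -0.31 to 0.17). Libraries with different numbers were not compared in this way, so these values cannot decide whether the numbers pair the samples. With the replicate block, gch2 in red tails stayed at 8.03 with a limma adjusted p of 0.0029 and xdh at 3.30 with 0.027, and no call of gch2 or xdh changed. Depth limited xdh in females, with 9 reads in MZCS002 female 2.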
